A study of Mus musculus with 8 samples.

Results

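The genes described here are 10 members of the fibroblast growth factor (FGF) family: the ligands Fgf4, Fgf5, Fgf8, Fgf10, Fgf15 and Fgf17 and the receptors Fgfr1, Fgfr2, Fgfr3 and Fgfr4. They were chosen by symbol, and were read by 24 of the 45037 probe sets used on each array and stand for 10 of the 18193 genes that these probe sets name. Gene expression was measured on 8 Affymetrix arrays, 1 per sample, in CCE, an established line of mouse embryonic stem (ES) cells of strain 129/Sv, and in embryoid bodies, the aggregates that ES cells form and differentiate in once they are kept from attaching. The 4 groups had 2 arrays each. They were embryoid bodies harvested on day 10 from cells transduced with a lentivirus carrying mouse Bmi1 cDNA, day 10 embryoid bodies from empty vector cells, ES cells transduced with the Bmi1 virus, and control ES cells, which joined 1 untreated and 1 empty vector culture. Transduced cells were sorted as eGFP-positive pools, and all ES cells were grown on gelatin with serum and leukemia inhibitory factor, which holds them undifferentiated. Bmi1 is a subunit of Polycomb repressive complex 1, which represses transcription through chromatin.

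FGF ligands are secreted, bind receptor tyrosine kinases together with heparan sulfate chains, and signal mainly through RAS and the kinases MEK and ERK. ETS factors such as Etv4 and Etv5 are transcribed in response, as are the inhibitors Spry4 and Dusp6, which damp the signal. In ES cells FGF4 is the ligand that the cells make for themselves, and the ERK signal it starts moves them from self-renewal towards differentiation. In the embryo FGF8 and FGF5 are made in the epiblast and the primitive streak, and FGF15, the mouse counterpart of FGF19, in the developing nervous system.

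Each value is a log2 intensity made with RMA (robust multi-array average). The library labels did not match the Bmi1 signal, which was 7.48 and 8.51 in the embryoid bodies labelled Bmi1 against 9.35 and 9.67 in the vector embryoid bodies, and 5.68 and 6.28 in the ES cells labelled Bmi1 against 7.41 and 7.74 in the control ES cells. The signal was thus lower in the samples that should carry the Bmi1 virus, which are therefore called "labelled Bmi1" throughout. Whether this probe set reads the viral cDNA was not analysed here. The median over non-control probe sets was 5.97 and 5.96 in the first embryoid body of each line, 5.90 and 5.89 in the second, and 5.57 to 5.61 in the ES cells, so the arrays fell into 3 sets of near-equal scale and the stage of the cells cannot be told apart from the set. The labelled cell states were borne out by their markers. All 8 markers of undifferentiated ES cells, Pou5f1 and Nanog among them, were lower in every embryoid body than in every ES culture, with list means of 8.80 to 10.77 against 12.60 to 13.01, and the 5 mesenchyme markers averaged 9.97 to 10.4 in embryoid bodies and 3.81 to 4.08 in ES cells. The labels do not say whether the arrays of a group came from separate cultures, so p-values measure the spread between these samples, which may be technical. In such bulk samples fewer cells of a type and less RNA per cell cannot be told apart.

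Between ES cells and embryoid bodies the called ligands fell and the called receptors rose. The ligand Fgf4 fell 8.92-fold and 10.3-fold in the 2 lines and Fgf17 at least 6.21-fold and 4.90-fold, the receptors Fgfr2 and Fgfr3 rose about 3-fold to 4-fold, and Fgfr1, the receptor gene of the family that ES cells are known to use, showed no called change at its brightest probe set. Of the 10 genes, 7 passed the filter for dim genes, which asks that a gene lie above the array's median in at least 2 arrays, and Fgf5, Fgf8 and Fgf10 did not. Of the 7, Fgf17 passed through its ES arrays alone. Among those 7, limma with Benjamini-Hochberg adjustment over 12982 genes called 5 at an adjusted p below 0.05 between the vector embryoid bodies and the control ES cells, 3 higher (22.7% of all genes were) and 2 lower (35.8%). Between embryoid bodies and ES cells labelled Bmi1 it called 4, 2 higher (background 21.2%) and 2 lower (38%). The background was wide: 58.5% of all tested genes were called in the first comparison and 59.2% in the second, so these counts say little about the family. The median size of the difference, either way, was 1.96 over the 7 genes against 0.82 over all tested genes in the first comparison. In the second it was 1.601 against 0.82. With dim groups set at the median, the value over all tested genes was 0.73 in both. Fgf17 had to differ to be tested and lies above the medians of the 7 even at its bound. Bounding it could therefore not move them, and medians without it were not analysed.

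**Figure D1:**
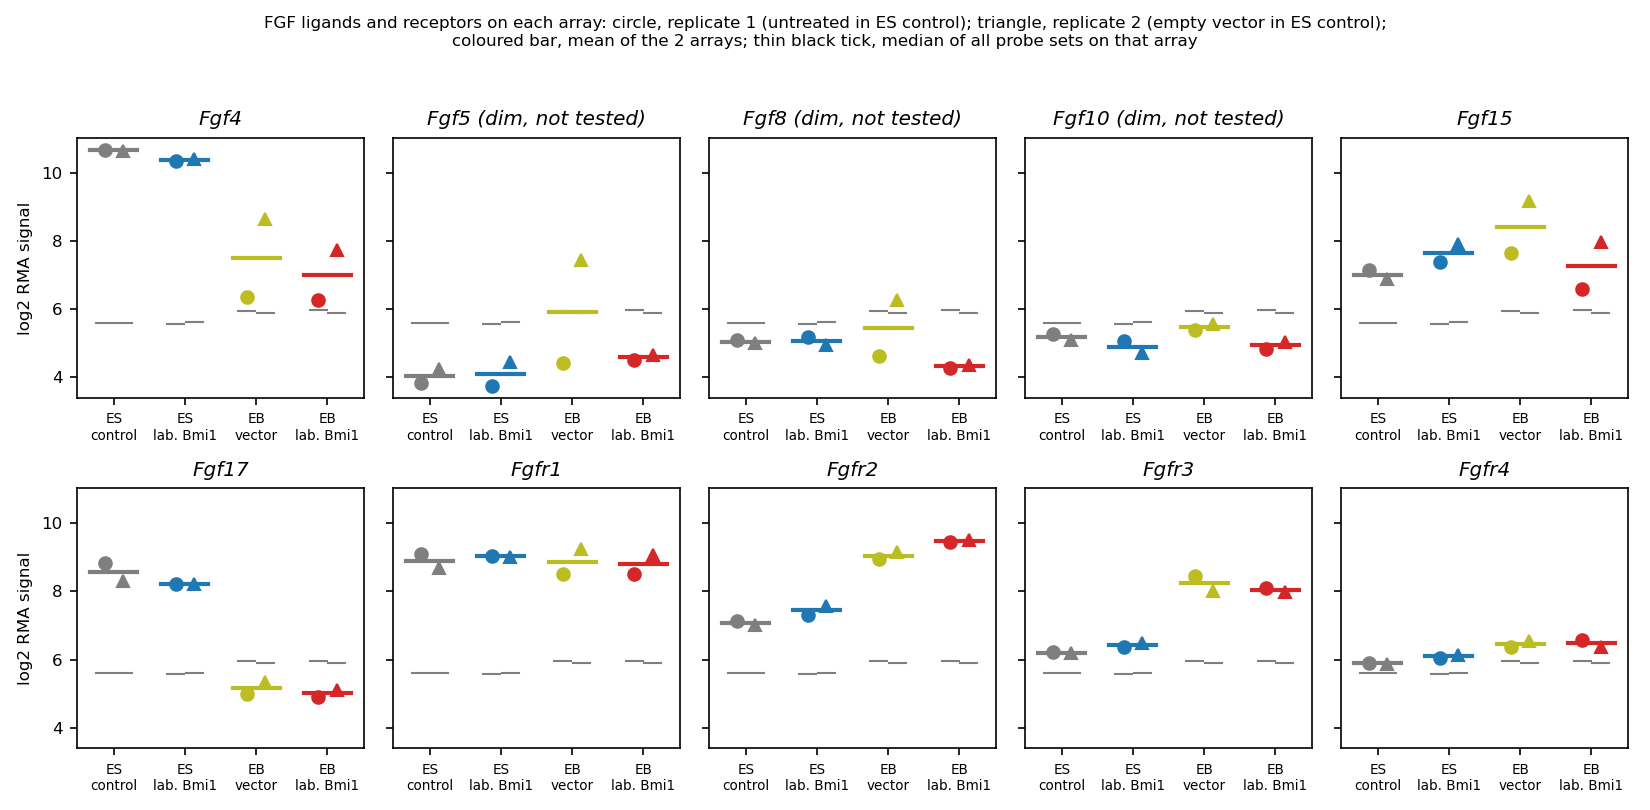
Log2 intensity (vertical axis, RMA) of each of the 10 FGF genes on each of the 8 arrays, by group, at the probe set with the highest mean. Circles and triangles are the first and second array of a group (untreated and empty vector in control ES cells), coloured bars are means of 2 arrays, and thin black ticks are the array's median. Fgf4 and Fgf17 lie higher in the 4 ES arrays than in the 4 embryoid body arrays, Fgfr2 and Fgfr3 lie lower there, and Fgf5 and Fgf8 stand out in 1 vector embryoid body array.

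Fgf4, the ligand by which ES cells signal to themselves, had log2 intensities of 10.67 and 10.64 in the untreated and the empty vector ES cells, 10.34 and 10.39 in the ES cells labelled Bmi1, 6.35 and 8.64 in the vector embryoid bodies and 6.27 and 7.72 in those labelled Bmi1. At this brightest probe set the ES arrays lay within a narrow band and no embryoid body reached it. In both lines the second embryoid body array was well above the first there. The group means were 10.65 ± 0.03 (SD, n = 2) in control ES cells and 7.50 ± 1.62 (SD, n = 2) in vector embryoid bodies. The difference of -3.16 ± 0.73 (SE) was 8.92-fold lower, with a limma adjusted p of 0.0085, and in the samples labelled Bmi1 it was -3.37 ± 0.73, 10.3-fold lower, with a limma adjusted p of 0.0066. Without the first vector embryoid body the vector difference was -2.01 (limma adjusted p = 0.017), and without the second it was -4.30 (5.5e-04). All 8 undifferentiated ES markers were likewise higher in the second than in the first embryoid body of both lines, and the part of remaining ES-like cells in the level of Fgf4 was not tested. Of the other Fgf4 probe sets, 1420086_x_at fell by 3.25 and 1450282_at fell by 1.57 in the vector samples, each called in a fit over every probe set, and 1449729_at was dim.

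Fgf17, a secreted ligand of the same subfamily as Fgf8, was at 8.82 and 8.30 in the untreated and the empty vector ES cells and at 8.22 and 8.23 in those labelled Bmi1. In embryoid bodies it was at 4.98 and 5.34 in the vector line and at 4.92 and 5.12 in the line labelled Bmi1, below that array's median in all 4, so the groups of the 2 stages stood clear of each other. Since Fgf17 passed the filter only through the ES arrays, it had to differ between the stages, and its fall is given as a bound: the ES mean over the median of the embryoid body arrays in place of the dim signal. The fall was at least 6.21-fold in the vector comparison (measured difference -3.40 ± 0.23, limma adjusted p = 7.1e-05) and at least 4.90-fold in the samples labelled Bmi1 (-3.21 ± 0.23, limma adjusted p = 1.0e-04). The second Fgf17 probe set, 1456239_at, read 7.10 to 8.21 in ES cells and 2.72 to 2.94 in embryoid bodies.

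Fgf15, whose protein signals through Fgfr4 with a klotho co-receptor in adult liver, was read by 1 probe set at 7.14 and 6.87 in the untreated and the empty vector ES cells, 7.38 and 7.92 in the ES cells labelled Bmi1, 7.64 and 9.17 in the vector embryoid bodies and 6.58 and 7.97 in those labelled Bmi1. The vector embryoid bodies lay above both control ES cultures, while the embryoid bodies labelled Bmi1 lay on either side of their ES cells. The stage difference was 1.40 ± 0.59 in the vector samples (limma adjusted p = 0.076, and 6.0e-04 with the set as a block, where 74.8% of all genes were called). Without the first vector embryoid body it was 2.16 (limma adjusted p = 0.014), and without the second it was 0.63 and not called. In the samples labelled Bmi1 it was -0.37 ± 0.59 (limma adjusted p = 0.607), and it turned to 0.32 without the first of these embryoid bodies, whereas with the block and median centring it was -0.72 (limma adjusted p = 0.0098).

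The remaining ligands were dim and were not tested. Fgf5, the usual marker of the primed epiblast, was above the array's median only in the second vector embryoid body, at 7.43, and read 3.75 to 4.67 on the other 7 arrays. Fgf8, a ligand of the primitive streak and the midbrain, was likewise above the median there alone, with 6.28 in that array and 4.28 to 5.196 elsewhere. Both peaks thus rest on 1 array, and that of Fgf5 on 1 of its 2 probe sets. The other, 1426186_a_at, was below the median on all 8 arrays, at 4.15 to 5.04, the last in that array. In the same array several marker lists stood high. There 3 of 5 primitive streak and early mesoderm markers had their highest value of the 8, Eomes at 8.45, Mixl1 at 6.96 and Mesp1 at 7.03, and the mean of that list was 6.23 against 5.47 to 5.50 in the other embryoid bodies, whereas Msgn1 had its lowest value there (4.75) and Tbx6 was at 3.97. Of 5 markers of the formative epiblast 3 were highest there, with a list mean of 8.64 against 6.80 to 8.43 in the other embryoid bodies, but 7.93 to 8.89 in ES cells. So were 4 of 6 endoderm markers, with a mean of 9.11 against 8.19 to 8.36 in the other embryoid bodies, and 3 of 6 neural ones, with 7.35 against 5.36 to 6.41. The part of these cell types in the Fgf5 and Fgf8 signals was not tested. Fgf10, the mesenchymal ligand of Fgfr2, was below the median of all 8 arrays, at 4.70 to 5.56.

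At their brightest probe sets, Fgfr2 and Fgfr3 were the receptors with the largest rises, and both were called in both lines. Fgfr2, whose isoforms serve epithelium and mesenchyme and which is prominent in early extra-embryonic lineages, was at 7.13 and 7.03 in the untreated and the empty vector ES cells, 7.32 and 7.58 in the ES cells labelled Bmi1, 8.94 and 9.16 in the vector embryoid bodies and 9.46 and 9.51 in those labelled Bmi1. At this brightest probe set the order from high to low began with the embryoid bodies, labelled Bmi1 above vector. The ES cells followed, labelled Bmi1 above control. No 2 neighbouring groups overlapped, although neither neighbouring pair within a stage was called. The rise was 3.90-fold in the vector samples (1.96 ± 0.17, limma adjusted p = 1.9e-04) and 4.11-fold in those labelled Bmi1 (2.04 ± 0.17, limma adjusted p = 1.9e-04). A second probe set, 1420847_a_at, lay below the median in the control ES cells and rose by at least 1.87 in the vector samples and by 1.88 in those labelled Bmi1, and 1443211_at was dim. At 1420847_a_at the 2 embryoid body groups overlapped.

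Fgfr3, a receptor of neural progenitors and of cartilage, had intensities of 6.22 and 6.20 in the untreated and the empty vector ES cells, 6.39 and 6.499 in the ES cells labelled Bmi1, 8.45 and 8.02 in the vector embryoid bodies and 8.11 and 7.97 in those labelled Bmi1. All embryoid bodies lay above all ES cultures. The rise was 4.08-fold in the vector samples (2.03 ± 0.19, limma adjusted p = 2.5e-04) and 3.03-fold in those labelled Bmi1 (1.601 ± 0.19, limma adjusted p = 6.4e-04). The second probe set, 1425796_a_at, passed the filter through the 2 vector embryoid bodies alone, and its vector difference was at least 0.67. It was below the median in the embryoid bodies and the ES cells labelled Bmi1, so no bound is given there.

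The bases just before the start of Fgf4, Fgfr2 and Fgfr3 are shown because these genes carry the opposite stage changes. They are the 250 bases upstream of the annotated gene start in RefSeq, build GRCm38.p6, printed 5′ to 3′ on the strand of the gene, with capitals for matches, on either strand, to the GC box GGGCGG, to TATANA or to CCAAT. The regions are chr7:144861136-144861385 (forward strand), chr7:130266809-130267058 (reverse strand) and chr5:33721474-33721723 (forward strand).
Fgf4: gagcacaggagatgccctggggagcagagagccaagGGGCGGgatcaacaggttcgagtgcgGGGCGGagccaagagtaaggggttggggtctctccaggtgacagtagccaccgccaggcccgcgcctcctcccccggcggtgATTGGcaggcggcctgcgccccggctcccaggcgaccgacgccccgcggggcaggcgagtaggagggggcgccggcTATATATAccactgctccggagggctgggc
Fgfr2: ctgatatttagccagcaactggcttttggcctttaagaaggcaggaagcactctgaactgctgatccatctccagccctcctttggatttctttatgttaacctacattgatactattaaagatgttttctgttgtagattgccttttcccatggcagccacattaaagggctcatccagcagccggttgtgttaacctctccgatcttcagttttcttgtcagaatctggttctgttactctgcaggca
Fgfr3: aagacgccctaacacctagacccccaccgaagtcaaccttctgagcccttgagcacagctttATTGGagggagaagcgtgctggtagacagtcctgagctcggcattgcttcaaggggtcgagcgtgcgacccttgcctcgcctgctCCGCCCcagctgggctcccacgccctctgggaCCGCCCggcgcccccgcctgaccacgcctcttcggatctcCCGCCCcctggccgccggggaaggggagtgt
The Fgf4 window held 71.2% G and C, 2 GC boxes, 1 CCAAT and 2 overlapping TATANA matches, the nearer of which begins 28 bases before the start. The Fgfr3 window held 66.8% G and C, 3 GC boxes, 1 CCAAT and no TATANA, and the Fgfr2 window held 44.0% and none of these letters. Of 32851 such windows in the table, 32.7% held the GC box, 22.6% TATANA and 33.9% CCAAT, and their median content of G and C was 52.4%. A match is only a match of letters. RefSeq windows for Fgf5, Fgf10 and Fgfr4 held 1, 1 and 2 GC boxes and neither other motif, and those of Fgf8, Fgf15, Fgf17 and Fgfr1 were not analysed here. In the RefSeq gene table Fgf3, Fgf4 and Fgf15 lie side by side on chromosome 7, with only a non-coding gene between Fgf4 and Fgf15.

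Fgfr1, the main receptor of ES cells, was read differently by its 3 probe sets. At the brightest, 1424050_s_at, it was at 9.11 and 8.70 in the untreated and the empty vector ES cells, 9.05 and 9.02 in the ES cells labelled Bmi1, 8.50 and 9.25 in the vector embryoid bodies and 8.51 and 9.08 in those labelled Bmi1, with full overlap of the stages. The stage difference there was -0.03 ± 0.31 in the vector samples and -0.24 ± 0.31 in those labelled Bmi1 (limma adjusted p = 0.947 and 0.525), within 95% intervals of -0.75 to 0.70 and -0.97 to 0.48, and its sign turned to 0.39 and 0.25 after quantile normalization. With the block and median centring together the second was -0.59 and was called (limma adjusted p = 0.011). At 1425911_a_at, by contrast, all embryoid bodies (7.65 to 8.55) lay above all ES cultures (6.53 to 6.91), a rise of 1.52 and of 1.09 with adjusted p of 0.0055 and 0.021 in the limma fit over every probe set. In that fit 55.1% and 55.7% of probe sets were called. The remaining probe set, 1436551_at, differed by 0.03 and by -0.00. Which transcripts each probe set reads was not analysed here.

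Fgfr4, the receptor for Fgf15 in liver, was at 5.89 and 5.89 in the untreated and the empty vector ES cells, 6.05 and 6.14 in the ES cells labelled Bmi1, 6.38 and 6.55 in the vector embryoid bodies and 6.59 and 6.36 in those labelled Bmi1. The stages did not overlap, but the rise was small: 0.57 ± 0.17 in the vector samples (limma adjusted p = 0.021) and 0.38 ± 0.17 in those labelled Bmi1 (0.085, and 0.033 with the set as a block, where 74.4% of all genes were called). The vector call was lost after quantile normalization (0.27, limma adjusted p = 0.214), after median centring (0.25, 0.243), and without the second vector embryoid body (0.49, 0.059), the untreated ES cells (0.58, 0.104) or the empty vector ES cells (0.57, 0.107). A second probe set, 1427846_x_at, was dim in all ES cells and differed by at least 1.22 and 0.96, while 3 dim ones moved by -0.30 to 0.24. Both brighter Fgfr4 probe sets are of the type (_x_at) in which some probes may also match other sequences.

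**Figure D2:**
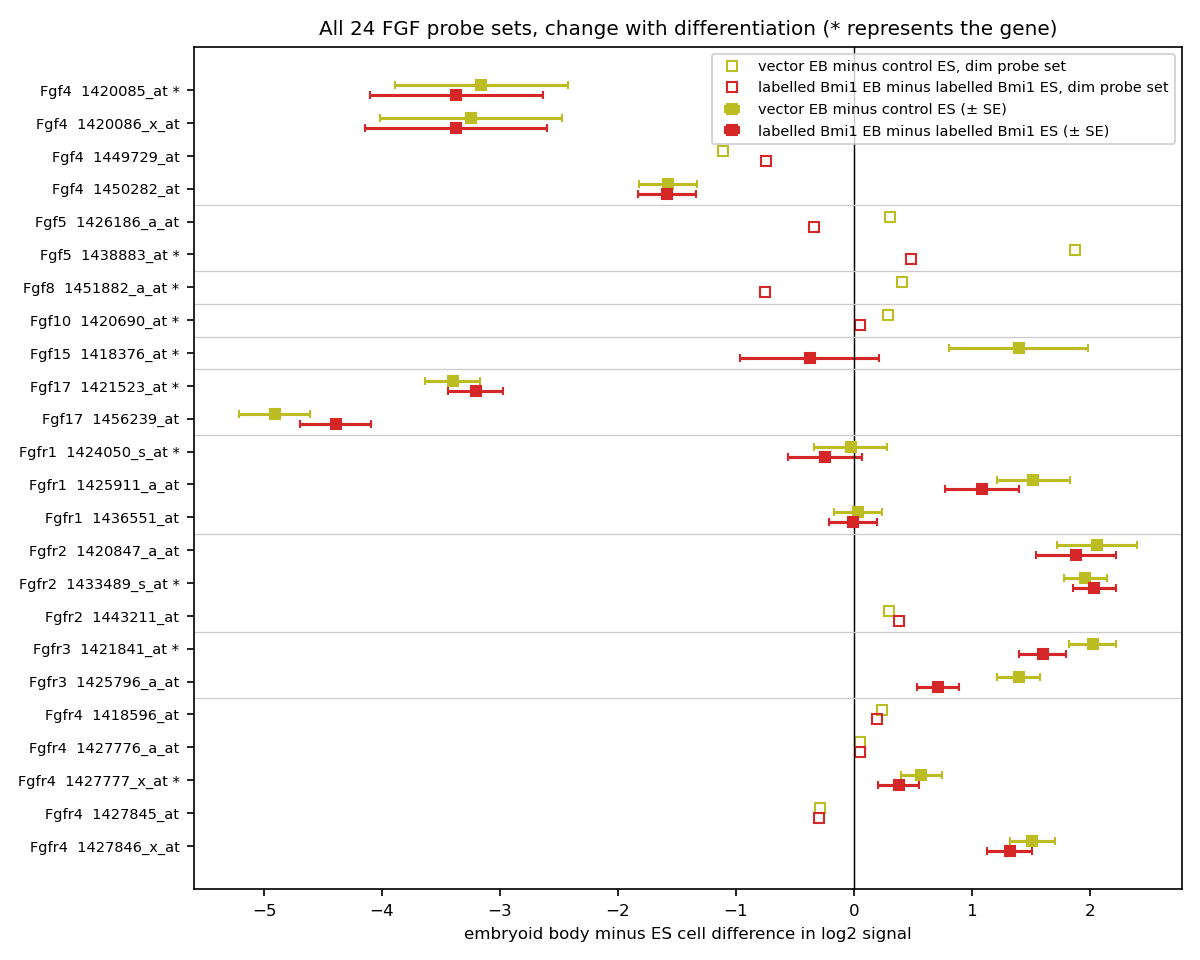
Difference in log2 intensity between embryoid bodies and ES cells (horizontal axis) for each of the 24 FGF probe sets, 1 colour per line. Filled points with SE bars passed the filter for dim signals, open points did not, and a star marks the probe set that represents its gene. The 3 brighter Fgf4 probe sets and both of Fgf17 lie left of 0, the brighter ones of Fgfr2, Fgfr3 and Fgfr4 lie right of it, and the 3 of Fgfr1 differ.

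Scaling shifted the median stage difference, and moved single genes by unequal amounts. The median difference of the tested genes was -0.24 in the vector comparison and -0.27 in the samples labelled Bmi1, -0.04 and -0.03 after quantile normalization, and -0.56 and -0.62 after median centring. After quantile normalization the vector difference of Fgfr4 fell from 0.57 to 0.27, while that of Fgfr1 went from -0.03 to 0.39 and that of Fgf4 from -3.16 to -2.87. The calls divided into 2946 higher and 4647 lower in the vector comparison, 3245 and 3425 after quantile normalization, and 2201 and 6058 after median centring. In the samples labelled Bmi1 they were 2750 and 4938, 3118 and 3475, and 1885 and 6372. The fall of Fgf4 and the rises of Fgfr2 and Fgfr3 were called under each of these scalings. Fgf17 was called lower under each as well, but it had to differ between the stages to be tested, so its calls carry no weight here.

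Between the embryoid bodies labelled Bmi1 and the vector embryoid bodies, none of the 7 tested FGF genes was called by limma, against a background of 0.139% of all tested genes (18 genes). At an unadjusted p below 0.05 there was 1 of 7, Fgfr2, against 7.06% of all genes. Since both embryoid body sets held both lines, the same contrast was also fitted with the set as a block. That fit called 2.09% of all genes and 1 FGF gene, Fgf15, which was lower in the samples labelled Bmi1. The share of genes whose arrays did not overlap between the groups was 25.2% over all genes, and among the 7 this held for Fgfr2 alone.

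Fgf15 was at 6.58 in the labelled Bmi1 against 7.64 in the vector embryoid bodies of the first set, and at 7.97 against 9.17 in the second, a difference of -1.055 and of -1.205. Within each set the embryoid body labelled Bmi1 was lower, but the first vector array lay below the second of those labelled Bmi1, so the groups overlapped. Without the block the difference was -1.13 ± 0.59 (limma adjusted p = 0.783, 95% interval -2.51 to 0.25), and 98.6% of tested genes differed by less. Leaving out 1 embryoid body array put it at -0.44 (without the first labelled Bmi1), -1.82 (without the second), -1.90 (without the first vector array) or -0.36 (without the second), none of them called. With the block the SE was 0.20 and the limma adjusted p was 0.045. That p was 0.022 with quantile normalization, 0.037 with median centring and 0.266 with the embryoid bodies fitted alone. Over the 6 neural progenitor markers the mean was 5.36 and 6.18 in the embryoid bodies labelled Bmi1 against 6.41 and 7.35 in the vector ones. Of the 6, 5 were lower in both sets, but several were dim. Only 1 and 3 of them lay above the array's median in the embryoid bodies labelled Bmi1, and 3 and 6 in the vector ones. Other lists moved as well. The means were 7.04 and 7.46 against 8.12 and 8.09 for endothelium (4 of 5 lower in both sets) and 7.46 and 7.62 against 8.57 and 8.10 for blood (3 of 5). Those of trophoblast, at 8.44 and 8.37 against 7.55 and 7.74, and of heart muscle, at 8.84 and 9.03 against 7.08 and 8.53, went the other way. The part of these cell types in the Fgf15 difference was not tested.

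Fgfr2 went the other way. At its brightest probe set it was at 9.46 and 9.51 in the embryoid bodies labelled Bmi1 and at 8.94 and 9.16 in the vector ones. It was thus higher by 0.52 in the first set and by 0.35 in the second. The difference of 0.44 ± 0.17 had an unadjusted limma p of 0.040, which did not pass adjustment over all genes (adjusted p = 0.658, and 0.136 with the set as a block). The second tested Fgfr2 probe set, 1420847_a_at, differed by 0.32 in the first set and by -0.32 in the second, with overlap of the groups. At their brightest probe sets, the differences of Fgf4 (-0.50 ± 0.73), Fgf17 (-0.14 ± 0.23), Fgfr1 (-0.08 ± 0.31), Fgfr3 (-0.19 ± 0.19) and Fgfr4 (0.01 ± 0.17) had limma adjusted p of 0.959 or more. Each changed sign when some single array was left out. Their other tested probe sets changed sign between the sets, save for 1425796_a_at of Fgfr3, 1427846_x_at of Fgfr4 and 1436551_at of Fgfr1. These differed by -0.44 ± 0.18, -0.27 ± 0.19 and 0.22 ± 0.20, and none was called in the limma fit over every probe set. At each of these probe sets the groups did not overlap, which held for 25.2% of all tested genes at their brightest probe sets. For Fgf4 the 95% interval of -2.23 to 1.22 left room for a change of more than 1 log2 unit either way.

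Fgf5, Fgf8 and Fgf10 were dim, and their differences carry no test. Fgf5 differed by 0.10 in the first set and by -2.77 in the second, where the vector embryoid body held the peak described above. Fgf8 differed by -0.35 and by -1.92, and Fgf10 by -0.56 and by -0.51. For Fgf8 and Fgf10 both arrays labelled Bmi1 were below both vector arrays.

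**Figure D3:**
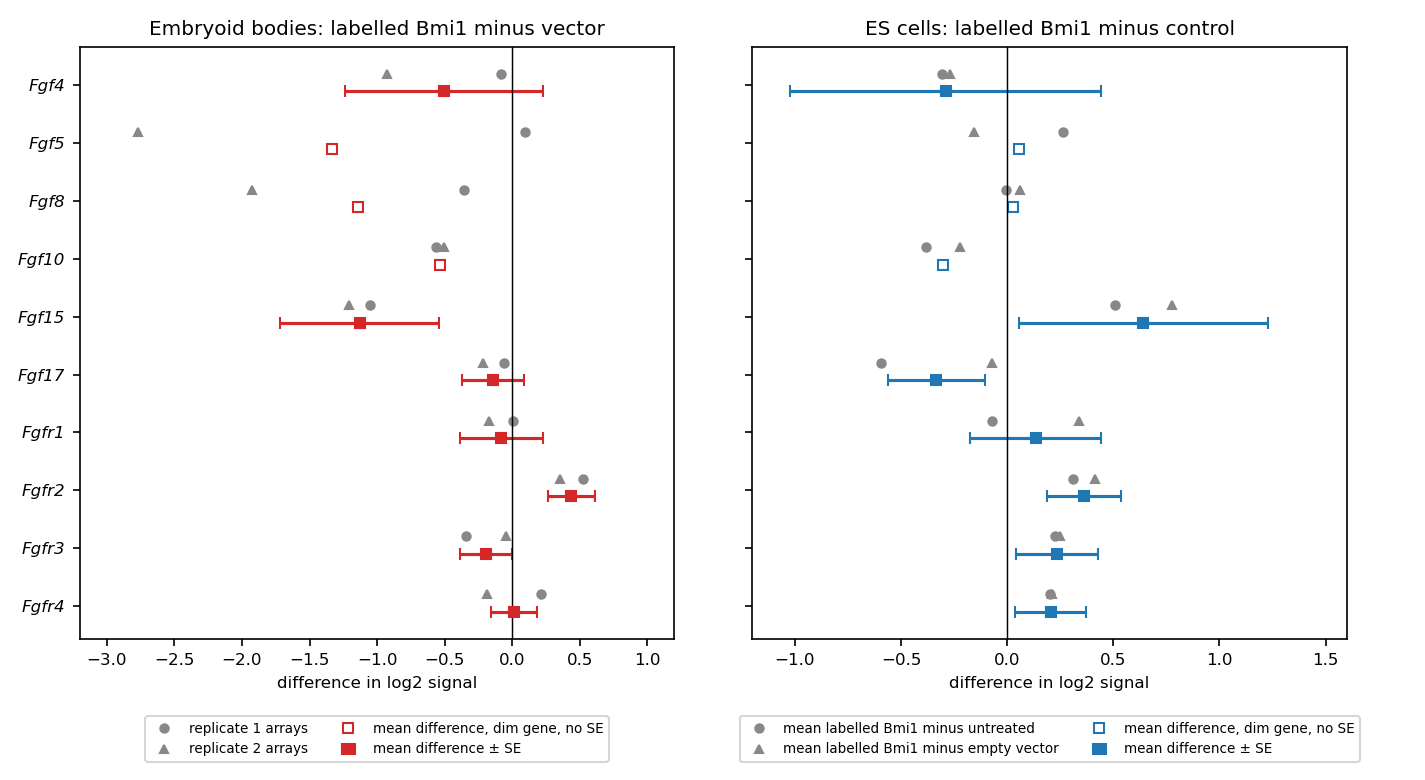
Difference in log2 intensity between samples labelled Bmi1 and their controls (horizontal axis) for each FGF gene, in embryoid bodies and in ES cells. Filled squares with bars are the limma difference ± SE of the 7 tested genes, open squares are dim genes, and grey marks are the 2 embryoid body sets or the 2 control cultures taken singly. Fgf15 lies at -1.13 in embryoid bodies and at 0.64 in ES cells, and Fgfr2, at its brightest probe set, lies right of 0 in both.

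In ES cells the same contrast, labelled Bmi1 against the joined controls, called none of the 7 (background 0.0462%), with none at an unadjusted p below 0.05 (6.29% of all genes) and none with the set as a block (background 1.66%). Arrays did not overlap between the groups for 6 of the 7, against 45.6% of all tested genes. Fgfr2 was at 7.32 and 7.58 against 7.13 and 7.03, a difference of 0.36 ± 0.17 (limma adjusted p = 0.932). Fgf15 was at 7.38 and 7.92 against 7.14 and 6.87, higher by 0.64 ± 0.59 with a limma adjusted p of 1. Fgf4 and Fgf17 were lower by less, at -0.29 ± 0.73 and -0.33 ± 0.23, and the control mean here joins an untreated with an empty vector culture.

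Whether the labelled Bmi1 difference depended on the stage, which is the same as whether the stage change depended on the label, was tested as an interaction. It called none of the 7 FGF genes, none at an unadjusted p below 0.05 (6.83% of all genes), and 0% of all genes after adjustment. With the set as a block it called 0.824% of all genes and again none of the 7. Fgf15, lower in embryoid bodies and higher in ES cells where labelled Bmi1, came nearest, at -1.77 ± 0.83 (limma adjusted p = 0.819, and 0.052 with the block). With the block, that p was 0.047 under quantile normalization and 0.043 under median centring.

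Around the ligands and receptors, 81 further genes of the pathway were listed by role, of which 73 were named by a probe set and 61 tested. Their counts are to be read against all tested genes, of which 22.7% rose and 35.8% fell in the vector samples and 21.2% rose and 38% fell in those labelled Bmi1. Of the 61, 9 were above the median in 1 stage only, against 1709 of all 12982, and had to differ to be tested. Genes that help ligand and receptor meet at the cell surface were mostly higher in embryoid bodies. Of 15 tested co-receptors and binding proteins, 11 rose and 1 fell in the vector samples and 10 rose and 2 fell in those labelled Bmi1, with a median difference of 1.28 and 1.33 against -0.24 and -0.27 over all genes. Of these 15, 5 were dim in all ES cells, and with dim groups set at the median the list medians were 1.23 and 0.93 against -0.17 and -0.21 over all genes. Flrt2, a membrane protein that binds FGF receptors, was at 3.73 to 4.03 in ES cells and at 9.17 to 10.09 in embryoid bodies, a rise of at least 15.2-fold and 16.5-fold over the median of the ES arrays, below which it lay. The heparan sulfate proteoglycan Gpc6, also below it in ES cells (4.45 to 5.28), rose at least 22.3-fold and 17.3-fold, and Gpc3, bright in both stages, rose by 3.38 and 2.14 on the log2 scale. Klb, the klotho co-receptor for FGF15, was called higher but was near or below the median everywhere, at 4.31 to 4.64 in ES cells and 5.71 to 6.09 in embryoid bodies. Fgfbp1, a secreted carrier that releases FGFs from the matrix, fell by 3.23 and 2.97. Mesenchyme markers moved with these genes, as given above, and their part was not tested.

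Transcripts known to respond to ERK signalling were counted in 2 lists. Of 8 tested ETS and immediate early targets, 5 fell and 1 rose in each line, with medians of -1.84 and -1.87. Etv4 was at 9.24 to 9.56 in ES cells and at 6.23 to 6.61 in embryoid bodies and fell by 2.98 and 2.85. Etv5 was at 6.68 and 6.08 in the first embryoid body set and at 10.03 and 8.73 in the second. In ES cells it was at 11.51 to 12.001. The split between the embryoid body sets was like that of Fgf4 at its brightest probe set. Myc, Ccnd1 and Ier2 fell as well, and the 1 called higher was Egr2, also a hindbrain factor, which was dim in ES cells (4.06 to 4.71) and at 5.50 to 6.67 in embryoid bodies. Of 10 feedback inhibitors, 4 fell in each line and 2 rose in the vector line, close to the shares of all genes (35.8% and 38% lower, 22.7% higher). The differences were -3.09 and -2.70 for Spry4, -1.82 and -2.31 for Dusp6, -1.72 and -1.15 for Spry2 and -1.30 and -1.65 for Spred2, whereas Spry1 (0.74) and Spred3, which was dim in the control ES cells (at least 0.44), rose in the vector samples.

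Within the cell, 6 of 12 tested genes from receptor to ERK fell and 2 rose in each line, against 35.8% and 38% of all genes lower and 22.7% and 21.2% higher, with medians of -0.42 and -0.41. The exchange factor Sos2 rose by 2.48 and 1.51, and the kinase Map2k2 fell by 1.41 and 1.95. Of 10 heparan sulfate enzymes, 4 rose in the vector samples and 1 rose and 2 fell in those labelled Bmi1, with medians of -0.05 and -0.19. Hs3st1, dim in ES cells, rose in both, at least 2.13-fold and 1.72-fold. Among the other secreted ligands 5 of 12 were tested. Fgf18, at 7.20 to 7.75 in ES cells and dim in all embryoid bodies (4.13 to 4.46), fell at least 2.93-fold and 2.88-fold. Fgf3, the chromosomal neighbour of Fgf4, was called lower in the samples labelled Bmi1 (limma adjusted p = 0.0498) but lay near or below the median on all 8 arrays, and no fold is given.

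**Figure D4:**
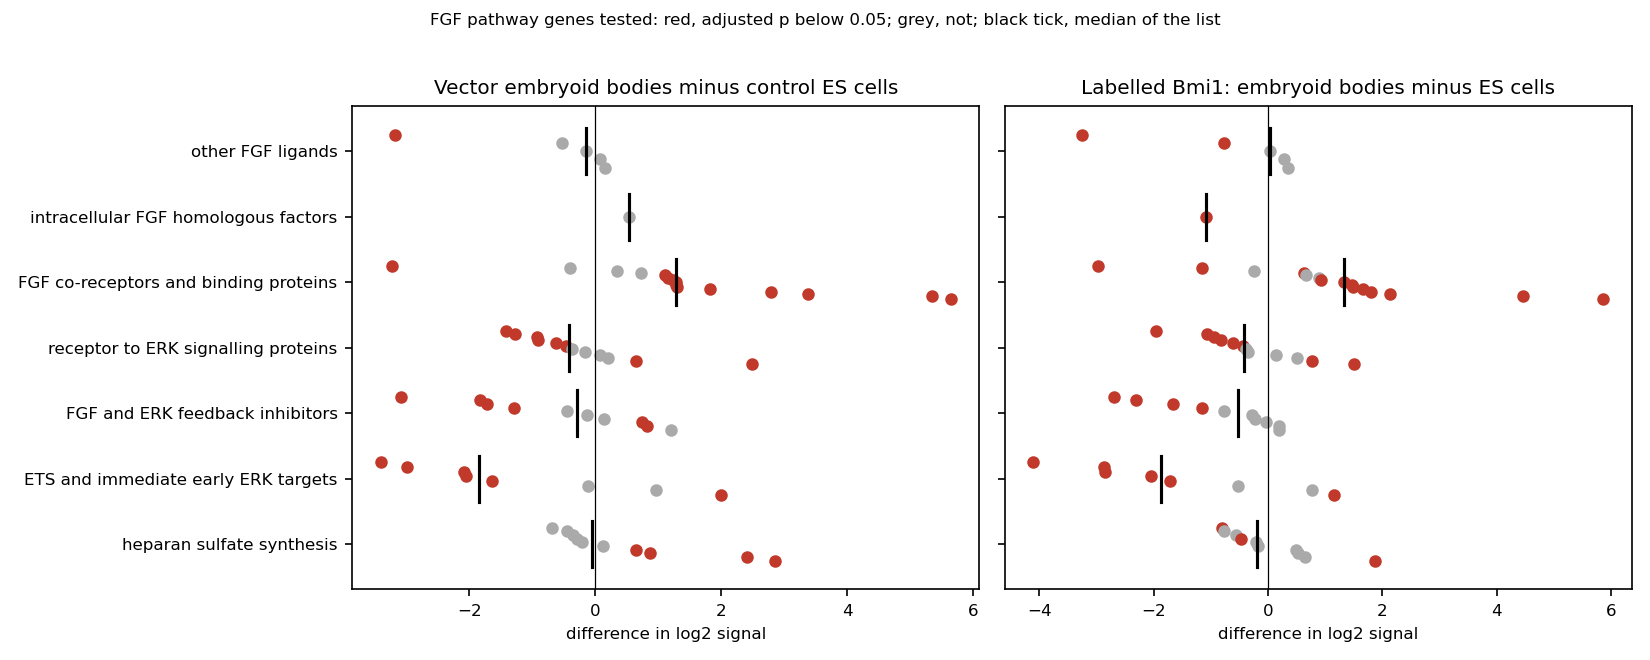
Difference in log2 intensity between embryoid bodies and ES cells (horizontal axis) for each tested gene of the 7 pathway lists, in the vector line on the left and in the line labelled Bmi1 on the right. Points are genes, red where the adjusted p was below 0.05, and black ticks are list medians. Co-receptors and binding proteins lie mostly right of 0 (medians 1.28 and 1.33), and ETS and immediate early targets mostly left (medians -1.84 and -1.87).

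None of the 61 pathway genes was called by limma between labelled Bmi1 and control samples in either stage, nor in the interaction, and 3, 6 and 5 of them had an unadjusted p below 0.05 in embryoid bodies, in ES cells and in the interaction, against 7.06%, 6.29% and 6.83% of all genes. With the set as a block, which called 2.09%, 1.66% and 0.824% of all genes in these comparisons, Ier2 was lower in the embryoid bodies labelled Bmi1 (-0.99, limma adjusted p = 0.049), and Fgf13, Hs6st2 and Sos2 were higher in the ES cells labelled Bmi1. Fgf13, one of the FGF homologous factors that stay inside the cell and bind sodium channels, was at 8.70 and 8.56 in those cells against 7.08 and 7.03 in the controls. The arrays stood clear of each other, with a difference of 1.57 ± 0.20 and a limma adjusted p of 0.109 without the block and 0.0087 with it. In embryoid bodies it was at 7.39 and 7.71 against 7.38 and 7.78, and the interaction of -1.604 ± 0.29 had a limma adjusted p of 0.233, and 0.017 with the block. Hs6st2, which sulfates heparan sulfate chains, was at 8.51 and 8.28 against 6.60 and 6.18 in ES cells, a difference of 2.003 ± 0.29 (limma adjusted p = 0.124, and 0.032 with the block).

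For the 5 tested FGF genes whose group means spanned at least 1 log2 unit, the genes nearest in profile were found by the root mean square difference between the centred profiles over the 8 arrays. These likenesses are descriptions. They largely follow the stage, which all 8 points share, except for Fgf15, whose stage difference was not called in either line without the block. Nearest to Fgf4 were Bcat1 (0.161), Zfp42 (0.217) and Tdgf1 (0.218), the last 2 also in the list of undifferentiated ES cell markers. Nearest to Fgf15 was Sox11 (0.231, Pearson's r = 0.952), a neural transcription factor, followed by Stc2 and Hectd2. Fgf17 was followed most closely by Aven (0.156), Fgfr2 by Tcf12 (0.116), Rhou (0.165) and Hand1 (0.167), and Fgfr3 by Dapk2 (0.0796) and Bmp1 (0.083).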

How the data were processed

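RNA of 8 samples was labelled with the manufacturer's one-cycle kit from 1 microgram of RNA, per the labels. The authors deposited 1 column of log2 values per array, for which the submitters' processing notes name RMA. Its version, and which arrays were processed together, are not given in the sources used here. Array controls (64 probe sets) were set aside. Symbols came from the platform annotation: 34945 probe sets had 1, 932 several and 9160 none. The probe set with the highest mean represented each gene, and 12982 of 18193 genes were above the array's median in at least 2 arrays and were tested.

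One model of the 4 groups was fitted with limma 3.58.1 in R 4.3.3, after a check on simulated data, with 4 residual degrees of freedom, contrasts between groups and Benjamini-Hochberg adjustment, threshold 0.05. Where both arrays of 1 stage group lay below their medians, the fold is a bound against the mean of those medians, a rule added after the data were seen. These bounds hold on the deposited scale only. The ES medians lay below those of the embryoid bodies, so median centring would lower the bound on a rise and raise that on a fall. Bounds under other scalings were not analysed. An alternative adds the set of the embryoid bodies as a block (3 residual degrees of freedom). Deviations of same-numbered embryoid bodies correlated at 0.721, but those of embryoid bodies and ES cells at 0.027 and 0.038, so numbers do not pair the samples across stages. Genes named are the 10 members, the pathway genes the counts turn on, and the 3 genes nearest in profile. Members and lists were chosen with earlier results of these data known, and pathway genes shown as examples were chosen among those called. The blocked fits with another scaling, or on embryoid bodies alone, were added after the data were seen. The number of arrays limits the precision.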

Additional observations from a re-analysis of the deposited data

How the results depend on the processing

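The number of FGF genes called in embryoid bodies for the Bmi1 label went from 0 to 1 (Fgf15) with the set of embryoid bodies as a block, also with quantile normalization or median centring, and in the interaction the block gave 1 with either of these scalings. Leaving out each array gave 0 calls for both Bmi1 contrasts and the interaction, 4 to 6 for the vector stage comparison and 4 to 4 for that labelled Bmi1. With the replicate block over the 6 numbered arrays, the counts were 0 in embryoid bodies and 4 for the stage labelled Bmi1, with 2 and 7765 calls over all genes. Over all genes the embryoid body contrast had 18 calls, but 11 over every probe set, 2 with the 75th percentile filter, 6 with median centring, 3 with a trend and robust prior, 0 with array weights or on 1 stage only, 271 with the set block and 0 to 218 with an array left out. In ES cells 6 became 0 over every probe set or after quantile normalization, 3 with probe sets averaged, 641 with array weights, 139 on 1 stage only, 216 with the set block and 0 to 50 with an array left out. The interaction had 0, 107 with the set block and 0 to 100 with an array left out.

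Among the tested FGF genes, signs turned only for differences that the fit of the 4 groups without the block did not call. Of these, the labelled Bmi1 stage differences of Fgfr1 (-0.59) and Fgf15 (-0.72) were called with the block and median centring together. Averaging probe sets gave -0.0655 for Fgfr4 in embryoid bodies, interactions of 0.0040 for Fgf4 and -0.0054 for Fgfr2, and stage differences of 0.51 and 0.28 for Fgfr1, which quantile normalization, with or without the block, put at 0.39 and 0.25. With the untreated ES cells alone Fgfr1 was at -0.0712 in ES cells; with the empty vector ES cells alone the Fgf17 interaction was -0.0653 and the vector stage difference of Fgfr1 was 0.18. With an array left out, the embryoid body contrast ranged from -1.65 to 0.65 for Fgf4, -0.32 to 0.0396 for Fgf17, -0.45 to 0.29 for Fgfr1, -0.41 to 0.0275 for Fgfr3 and -0.0993 to 0.13 for Fgfr4, and the ES contrast of Fgfr1 from -0.0712 to 0.34. Interactions ranged from -1.36 to 0.94 for Fgf4, -0.0653 to 0.46 for Fgf17, -0.59 to 0.16 for Fgfr1 and -0.0554 to 0.20 for Fgfr2. Stage differences ranged from -0.40 to 0.35 for Fgfr1 in the vector samples, and from -1.06 to 0.32 for Fgf15 and -0.53 to 0.0431 for Fgfr1 in those labelled Bmi1. Of the members' alternative values, 1019 kept their direction and side of the threshold or moved by less than the spread, 32 changed sign, 9 lost a call, 12 gained one and 19, of dim genes, moved by more than the spread. The causes were not tested.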
